A study of Mus musculus with 6 samples.

Results

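Respiratory complex I, the NADH:ubiquinone oxidoreductase of the mitochondrial inner membrane, was followed in cold-acclimated iWAT (inguinal white adipose tissue, which lies under the skin) through every listed gene whose symbol begins with Nduf. The rule selected 44 of the 16538 genes in the deposited table. By symbol, 10 were Ndufs or Ndufv genes (called core here), 27 were Ndufa, Ndufb or Ndufc genes (accessory) and 7 were Ndufaf genes (assembly factors). The control samples are labelled wt, and the study's text describes fl/fl littermates as the controls of this strain. The AKO samples came from mice that lack Nrg4 in adipocytes through Adiponectin-Cre, which acts wherever that adipocyte promoter is active and leaves Nrg4 in the other cells of the depot. By the labels, mice of both groups spent 10 days at 8 °C (the study's text gives a longer period), and 3 samples per group were sequenced, each of them RNA pooled from 2 mice of the same genotype. The ages of the mice are not given in the sources used here.

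Complex I takes electrons from NADH, passes them through a flavin and a chain of iron-sulfur clusters to ubiquinone, and uses the energy released to pump protons. Its peripheral arm holds the N module, where NADH is oxidized, and the Q module, where ubiquinone is reduced, and its membrane arm holds the proton pumps. In beige fat, the thermogenic fat that forms within white depots in the cold, electron transport sustains the proton gradient that UCP1 dissipates as heat. The catalytic core is made partly from nuclear Ndufs and Ndufv genes and partly from mitochondrial mt-Nd genes, the accessory subunits surround it, and assembly factors build the complex without remaining in the mature enzyme. The symbols do not follow this division exactly: Ndufs4, Ndufs6 and Ndufv3 encode accessory subunits, Ndufa4 encodes a subunit now placed with cytochrome c oxidase, and Ndufa4l2 encodes its paralog.

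The depth was 17570335 to 18373707 reads on the listed genes per sample. Values are normalized counts, that is, reads divided by a size factor for each sample, and a log2 fold change is AKO minus control on the log2(normalized count + 1) scale. All 44 genes passed the filter of a mean of 10 normalized counts, so no member was lost to it. The fewest reads for any member in any sample were 71. Nrg4 itself was at 3128, 3102 and 3092 normalized counts in control iWAT and at 2577, 2627 and 2691 in AKO iWAT. The AKO values of Nrg4 were all below the control values, with a mean 15.3% lower and a log2 fold change of -0.24 (SE 0.05, adjusted p = 0.298 by limma). The study's text reports by qPCR that AKO iWAT had almost no Nrg4 mRNA, and these reads do not show such a loss. The reads were summed over the gene and over all cells of the depot, and the reason for the difference was not tested. The Nrg4 values thus check the labels only in part. Ucp1, a marker of beige adipocytes, was at 18058, 25393 and 16827 in control iWAT and at 5401, 4836 and 7801 in AKO iWAT. In whole tissue, fewer cells of a type and less RNA per cell cannot be told apart.

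Before the levels are compared, 7 of the 44 genes need a caution, because the mouse genome holds near-identical processed pseudogenes of their coding sequence. Reads that fit a gene and its copy equally well cannot be placed by sequence, and how the counting treated them is not given in the sources used here. The coding sequence of Ndufab1, the mitochondrial acyl carrier protein that is also a complex I subunit, is the clearest case. Its bases 61 to 180, counted from 1 at the first coding base, are shown with the same bases of both copies, and capitals mark the positions where the sequences differ.
Ndufab1: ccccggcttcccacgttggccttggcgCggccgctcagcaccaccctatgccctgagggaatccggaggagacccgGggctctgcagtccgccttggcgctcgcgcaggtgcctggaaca
Ndufab1-ps: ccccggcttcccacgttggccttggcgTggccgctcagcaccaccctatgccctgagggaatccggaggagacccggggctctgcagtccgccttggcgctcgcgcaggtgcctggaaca
Gm4459: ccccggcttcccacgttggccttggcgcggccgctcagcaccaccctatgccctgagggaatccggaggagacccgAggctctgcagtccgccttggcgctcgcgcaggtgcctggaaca

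In GRCm38, Ndufab1 lies at chr7:122085403-122101886 on the minus strand, Ndufab1-ps at chr7:80507787-80508254 on the plus strand and Gm4459 at chr7:139659688-139660155 on the minus strand. In the stretch shown, Ndufab1-ps differs from Ndufab1 by C88T and Gm4459 differs from it by G137A. Over the whole alignment, Gm4459 had 1 substitution in 468 aligned bases. Ndufab1-ps had 2 substitutions and 1 gap base in 469. For Ndufb4, a membrane arm subunit, the copy Ndufb4c was identical over all 390 coding bases. Ndufa12, an N module subunit, had a copy with 2 substitutions in 402 bases. The copies of Ndufb3, Ndufb11, Ndufs3 and Ndufs6 had 9 to 12 substitutions each.

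Levels compared between genes are means of the control samples per kilobase of the principal transcript. The highest was Ndufa4, at 5960 normalized counts per kilobase, followed by Ndufb8 at 5760 and Ndufb9 at 5748. This order depends on the length used. Per kilobase of the exonic bases of all transcripts together, Ndufb9 was highest at 3925, with Ndufa4 at 2633 and Ndufb8 at 1245. The core genes had a median of 1617 per kilobase, the accessory genes 2142 and the assembly factors 209. All 7 assembly factors, from Ndufaf6 at 85.1 to Ndufaf7 at 324, lay below every core gene, of which Ndufs4 was lowest at 715. Only 4 subunit genes lay in the range below the core genes, namely Ndufa12 at 384, Ndufa4l2 at 338, Ndufb4 at 141 and Ndufab1 at 29.9 per kilobase. Of these 4, Ndufa12, Ndufb4 and Ndufab1 are the members with the closest copies, and the part of shared reads in their low levels was not tested. The choice of transcript length also matters here, since the transcript used for Ndufab1 is 3479 bases long, of which 471 are coding. Per kilobase of the exonic bases of all transcripts, Ndufs4 was again the lowest core gene, at 448. By that length Ndufb2 at 102, Ndufb7 at 237 and Ndufb5 at 391 also lay below it.

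**Figure D1:**
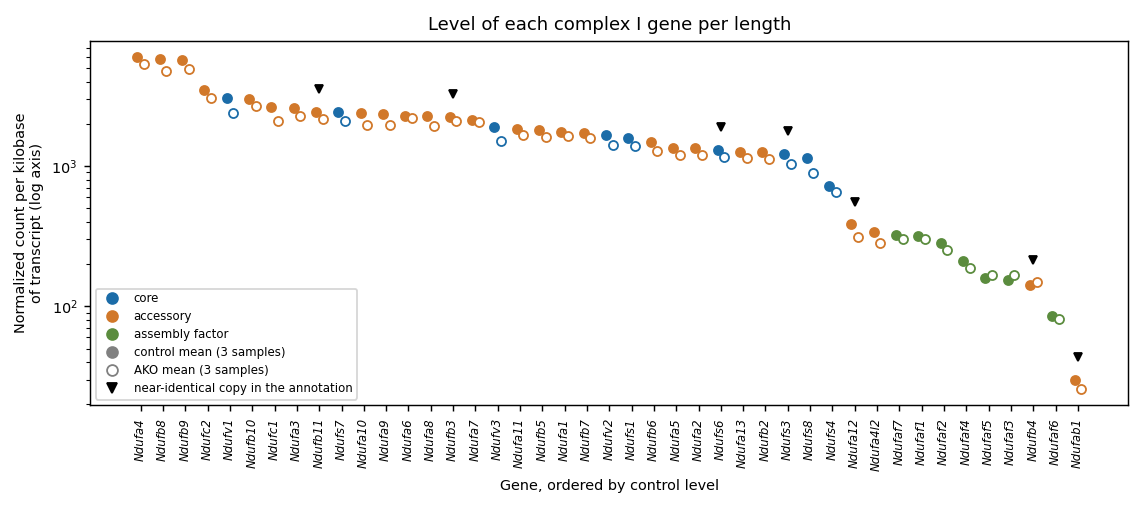
Mean normalized count per kilobase of transcript for 43 of the genes, on a log axis, ordered by the control level. Filled points are means of the 3 control samples, open points are means of the 3 AKO samples, colors give the class and triangles mark the 7 genes with a near-identical copy. The 7 assembly factors, together with Ndufa12, Ndufa4l2, Ndufb4 and Ndufab1, lie below all the other genes.

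The comparison of AKO with control asks whether loss of adipocyte Nrg4 alters complex I transcripts in cold-acclimated iWAT. Most complex I genes were slightly lower in AKO iWAT, and no single difference passed the test with limma, while DESeq2 called Ndufv1. limma called 0 of the 44 genes at an adjusted p under 0.05 (2 of all 13855 genes tested, 0.0144%), and the adjusted p-values ran from 0.315 for Ndufv1 to 0.945 for Ndufaf6. The log2 fold change was below 0 for 41 of the 44 genes (93.2%), while 48.1% of all genes tested were below 0. The median was -0.17 over the 44 genes and 0.01 over all genes tested, and the median complex I gene was 11.5% lower in AKO. Without control 2 the median over the 44 genes was -0.10. For 14 of the 44 genes (31.8%), the groups did not overlap, with AKO the lower, against 8.31% of all genes tested. For none of the 44 was AKO the higher without overlap, against 6.14% of all genes. Among the 10322 genes within the range of mean levels of the 44, the log2 fold change was below 0 for 51%, and AKO was the lower without overlap for 9.24%. Without control 1, the groups did not overlap for 34 of the 44, while the share over all genes, in either direction, was 28.9%.

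At an unadjusted p under 0.05, limma gave 12 of the 44 genes, all lower in AKO (27.3%, against 4.69% lower and 4.41% higher of all genes tested). The 12 became 28 without control 1, 4 without control 2, 7 without control 3, 4 without AKO 1, 7 without AKO 2 and 10 without AKO 3. The share of all genes with such a p is not at hand for these fits, so these counts cannot be set against it. On the recovered reads, edgeR called 0 of the 44 (0.0216% of all genes; 9 of the 44 at an unadjusted p under 0.05, all lower, against 4.07% lower of all genes). DESeq2, the tool of the study's methods, called 1 of the 44, Ndufv1, which was lower in AKO (0.757% of all genes were called lower by DESeq2). These counts describe the list and are not independent observations, because the 44 genes were read from the same 6 samples.

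**Figure D2:**
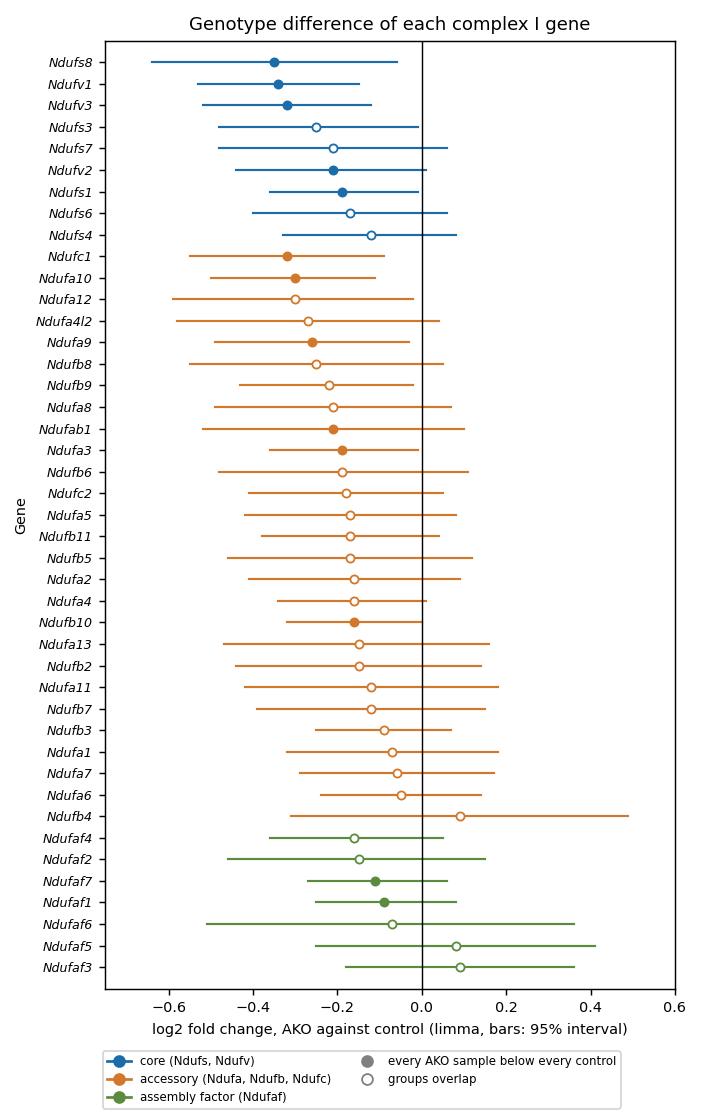
The log2 fold change of AKO against control for 43 of the genes, with the 95% interval from limma, grouped by class and ordered within it. Filled points mark genes whose groups did not overlap, AKO being the lower. Of the 43 points, 40 lie left of 0, and the 3 to the right are Ndufb4, Ndufaf5 and Ndufaf3.

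The core class had the lowest median of the 3 classes. All 10 Ndufs and Ndufv genes had log2 fold changes below 0, with a median of -0.23 and a range from -0.35 for Ndufs8 to -0.12 for Ndufs4. The groups did not overlap for 6 of the 10 (8.31% of all genes tested), and 5 of the 10 had an unadjusted p under 0.05 (4.69% of all genes, lower in AKO). The 3 Ndufv genes, which encode the flavoprotein end of the complex where NADH binds, had a median of -0.32 and did not overlap in any of the 3. The 7 genes that encode true core subunits had a median of -0.25. The other 3 of the class, Ndufs4, Ndufs6 and Ndufv3, had -0.17.

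Ndufv1 carries the flavin and the NADH binding site. It was at 4785, 5647 and 4689 normalized counts in control iWAT and at 3862, 4033 and 4008 in AKO iWAT. The AKO samples lay close together, and the highest of them was 656 normalized counts below the lowest control. The mean went from 5040 ± 527 to 3968 ± 92.1 (SD, n = 3 each), 21.3% lower, with a log2 fold change of -0.34 (SE 0.08, 95% interval -0.53 to -0.15). The adjusted p was 0.315 by limma and 0.351 by edgeR, and 0.0187 by DESeq2.

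Ndufv3 encodes an accessory subunit of the N module. Its values were 2695, 3351 and 2956 in control iWAT and 2305, 2405 and 2478 in AKO iWAT. The groups did not overlap, and the log2 fold change was -0.32 (SE 0.09, adjusted p = 0.373 by limma and 0.0652 by DESeq2). Ndufv2, which holds an iron-sulfur cluster of the N module, had a log2 fold change of -0.21, also without overlap.

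In the Q module, Ndufs8 carries a pair of iron-sulfur clusters on the path to ubiquinone. It was at 956, 1284 and 1119 in control iWAT and at 763, 917 and 953 in AKO iWAT. Its log2 fold change of -0.35 (SE 0.13, adjusted p = 0.498 by limma) was the lowest of all 44, yet the highest AKO and the lowest control sample were only 3.82 normalized counts apart. Ndufs3, a Q module subunit with a near-identical pseudogene, was at 1154, 1430 and 1257 in control iWAT and at 974, 1075 and 1183 in AKO iWAT. Its groups overlapped, with a log2 fold change of -0.25 (SE 0.10, adjusted p = 0.534 by limma).

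Over the 6 Q module genes the median was -0.25, with 6 of 6 below 0, and over the 10 N module genes it was -0.18, with 10 of 10 below 0.

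Ndufs1, the largest subunit, holds several iron-sulfur clusters of the electron path. It was at 4134, 4590 and 3904 in control iWAT and at 3643, 3893 and 3551 in AKO iWAT. Only 11 normalized counts lay between the groups, and the log2 fold change was -0.19 (SE 0.08, adjusted p = 0.534 by limma). Ndufs4, an N module subunit needed for a stable complex, was nearest to no difference within the class, at 1077, 1237 and 1328 in control iWAT and 1072, 1182 and 1081 in AKO iWAT. Its groups overlapped (log2 fold change -0.12, SE 0.09, adjusted p = 0.741 by limma).

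The accessory class was lower by less. Of its 27 genes, 26 had log2 fold changes below 0, with a median of -0.17 and a range from -0.32 for Ndufc1 to 0.09 for Ndufb4. The groups did not overlap for 6 of the 27 (8.31% of all genes tested), and 7 of the 27 had an unadjusted p under 0.05 (4.69% of all genes, lower in AKO). By subfamily the medians were -0.17 for the 15 Ndufa genes, -0.17 for the 10 Ndufb genes and -0.25 for the 2 Ndufc genes. Among the accessory subunits of the membrane arm, 17 of the 18 listed were below 0, with a median of -0.17. Without Ndufa4 and Ndufa4l2, the 25 remaining accessory genes kept a median of -0.17.

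Ndufa10, an accessory subunit of the membrane arm, was at 4540, 5460 and 4592 in control iWAT and at 3738, 4095 and 3961 in AKO iWAT. The groups were 445 normalized counts apart, and the log2 fold change was -0.30 (SE 0.08, 95% interval -0.50 to -0.11, adjusted p = 0.387 by limma and 0.0753 by DESeq2). Ndufc1, a small membrane arm subunit, was at 726, 935 and 836 in control iWAT and at 626, 687 and 679.7 in AKO iWAT. It was 20.1% lower in AKO without overlap (log2 fold change -0.32, SE 0.10, adjusted p = 0.45 by limma).

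Ndufa9, a Q module subunit at the junction of the arms, was at 3027, 3878 and 3276 in control iWAT and at 2628, 2831 and 3001 in AKO iWAT. The groups were only 25.4 normalized counts apart, and the log2 fold change was -0.26 (SE 0.10, adjusted p = 0.515 by limma). Ndufa12 was at 369, 482 and 428 in control iWAT and at 305, 352 and 376 in AKO iWAT. Its highest AKO sample passed its lowest control sample (log2 fold change -0.30, SE 0.12, adjusted p = 0.527 by limma).

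Ndufb4 was the one subunit gene with a log2 fold change above 0. It was at 107, 167 and 137 in control iWAT and at 129.6, 143 and 159 in AKO iWAT, and the AKO samples lay within the control range. The log2 fold change was 0.09 (SE 0.17, adjusted p = 0.928 by limma), and it became -0.08 when control 1, the lowest sample, was left out. Its wide interval, from -0.31 to 0.49, includes the median of its class, so this gene was not shown to differ from the others.

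Outside complex I proper, Ndufa4 was at 3302, 3923 and 3683 in control iWAT and at 3195, 3375 and 3163 in AKO iWAT, and the groups overlapped (log2 fold change -0.16, SE 0.08, adjusted p = 0.574 by limma). Ndufa4l2 was at 286, 334 and 326 in control iWAT and at 271, 217 and 303 in AKO iWAT, also with overlap (log2 fold change -0.27, SE 0.13, adjusted p = 0.598 by limma). Ndufab1, which unlike these genes is a complex I subunit, was at 98.3, 113 and 101 in control iWAT and at 96, 93.7 and 80 in AKO iWAT. Its groups were 2.31 normalized counts apart, about the worth of a few reads (log2 fold change -0.21, SE 0.13, adjusted p = 0.696 by limma).

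**Figure D3:**
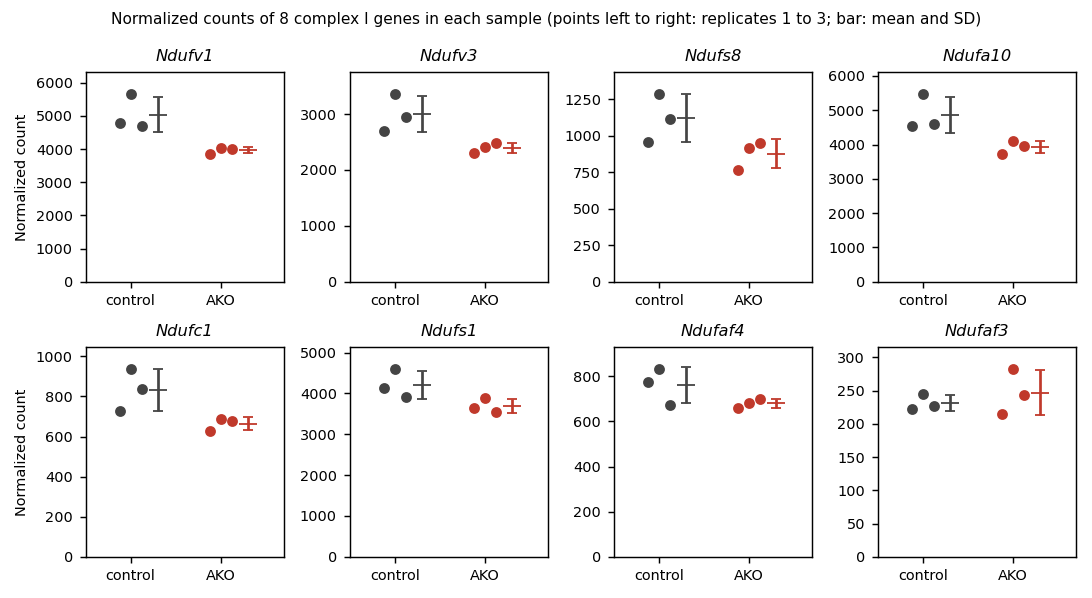
Normalized counts of 8 complex I genes in each of the 3 control and 3 AKO samples, with the mean and SD beside the points, on axes that start at 0. Ndufv1, Ndufv3, Ndufs8, Ndufa10, Ndufc1 and Ndufs1 did not overlap between groups, and Ndufaf4 and Ndufaf3 did.

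The assembly factors had the median nearest to 0 of the 3 classes. Of the 7 Ndufaf genes, 5 had log2 fold changes below 0 (71.4%, against 48.1% of all genes tested). Their median was -0.09, with a range from -0.16 for Ndufaf4 to 0.09 for Ndufaf3. The groups did not overlap for 2 of the 7, with AKO the lower (28.6%, against 8.31% of all genes tested). None of the 7 had an unadjusted p under 0.05 by limma (4.69% of all genes, lower in AKO). The difference between the classes was not tested, since genes of one table are not replicates of a genotype.

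Ndufaf4, which acts early in the assembly of the Q module, was at 776, 831 and 674 in control iWAT and at 659.7, 680.5 and 701 in AKO iWAT. Control 3 fell among the AKO samples (log2 fold change -0.16, SE 0.09, adjusted p = 0.652 by limma). Ndufaf7, a mitochondrial methyltransferase needed for assembly, was at 579, 575 and 546 in control iWAT and at 496, 539 and 545 in AKO iWAT. Its groups did not overlap, but were 1.17 normalized counts apart (log2 fold change -0.11, SE 0.07, adjusted p = 0.716 by limma).

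Ndufaf1, a factor of the membrane arm, was at 439.5, 462 and 483 in control iWAT and at 432, 438 and 434 in AKO iWAT. The groups were 1.18 normalized counts apart (log2 fold change -0.09, SE 0.07, adjusted p = 0.783 by limma). Ndufaf2, a late factor that resembles Ndufa12, was at 166, 227 and 185 in control iWAT and at 162, 172 and 181 in AKO iWAT, with overlap (log2 fold change -0.15, SE 0.13, adjusted p = 0.792 by limma). In the GENCODE M21 annotation, 65.6% of the 2978 exonic bases of all Ndufaf2 transcripts together are shared with a noncoding RNA of the opposite strand. The principal transcript of Ndufaf2 has 678 bases. Without strand, reads from the shared bases cannot be told from those of that RNA.

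Ndufaf3, a partner of Ndufaf4, was at 222, 245 and 227 in control iWAT and at 215, 282 and 244 in AKO iWAT. AKO 1 was the lowest and AKO 2 the highest of all 6, and the log2 fold change was 0.09 (SE 0.12, adjusted p = 0.88 by limma). It became -0.01 without AKO 2.

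A list of assembly proteins without the Nduf name was lower by about as much as the subunits. Of the 13 on the list, 10 were tested, and 9 of the 10 had log2 fold changes below 0, with a median of -0.20. limma called none of the 10, and 6 of the 10 had an unadjusted p under 0.05, all of them lower in AKO without overlap (4.69% of all genes tested had such a p and were lower, and 8.31% were lower without overlap). Foxred1, a factor of the membrane arm, was at 1107, 1199 and 1101 in control iWAT and at 999.7, 901 and 998 in AKO iWAT (log2 fold change -0.23, SE 0.07, adjusted p = 0.448 by limma). Tmem186, another assembly factor, was at 425, 469 and 416 in control iWAT and at 362, 382 and 341 in AKO iWAT (log2 fold change -0.27, SE 0.08, adjusted p = 0.45 by limma). Nubpl, which delivers iron-sulfur clusters to the complex, had 0.17, with AKO the higher without overlap (adjusted p = 0.758 by limma).

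The mitochondrially encoded subunits form the proton-pumping core of the membrane arm. Of the 7 mt-Nd genes, 6 were listed and 5 passed the filter, mt-Nd3 being at 0 to 5.86 normalized counts. All 5 were lower in AKO without overlap (8.31% of all genes tested), with a median log2 fold change of -0.30. mt-Nd2 was at 303035, 331955 and 327238 in control iWAT and at 269268, 263854 and 233275 in AKO iWAT (log2 fold change -0.33, SE 0.14, adjusted p = 0.549 by limma and 0.00793 by DESeq2). mt-Nd6 was at 154350, 161177 and 177038 in control iWAT and at 147670, 123687 and 130250 in AKO iWAT (log2 fold change -0.30, SE 0.13, adjusted p = 0.539 by limma and 0.074 by DESeq2). limma called none of the 5, and DESeq2 called 4 of them, mt-Nd1, mt-Nd2, mt-Nd4 and mt-Nd5 (0.757% of all genes were called lower by DESeq2).

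The 6 samples were not interchangeable within a group. Control 2 was the highest of all 6 samples for 36 of the 44 genes (81.8%), against 22.2% of all genes tested. AKO 1 was the lowest of all 6 for 30 of the 44 (68.2%), against 14.7% of all genes. Within the control group, control 1 was the lowest for 36 of the 44. The SD between the control samples exceeded that between the AKO samples for 37 of the 44 genes (84.1%, against 54.2% of all genes tested).

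Seen as the median of the 44 genes in each sample, relative to the control mean on the log2 scale, the control samples were at -0.15, 0.17 and -0.01 and the AKO samples at -0.28, -0.15 and -0.10. Control 1 thus lay among the AKO samples. For the core genes, the control samples were at -0.14, 0.17 and -0.05 and the AKO samples at -0.35, -0.22 and -0.18, without overlap. For the accessory genes, the control samples were at -0.20, 0.17 and 0.01 and the AKO samples at -0.27, -0.17 and -0.10. For the assembly factors, they were at -0.06, 0.09 and -0.04 and at -0.19, -0.07 and -0.06. The pooled SD of these sample medians was 0.13 over the 44 genes, 0.13 for the core, 0.15 for the accessory and 0.08 for the assembly factors. Without control 2, the median log2 fold change was -0.10 over the 44 genes, -0.12 for the core, -0.10 for the accessory genes and -0.03 for the assembly factors.

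**Figure D4:**
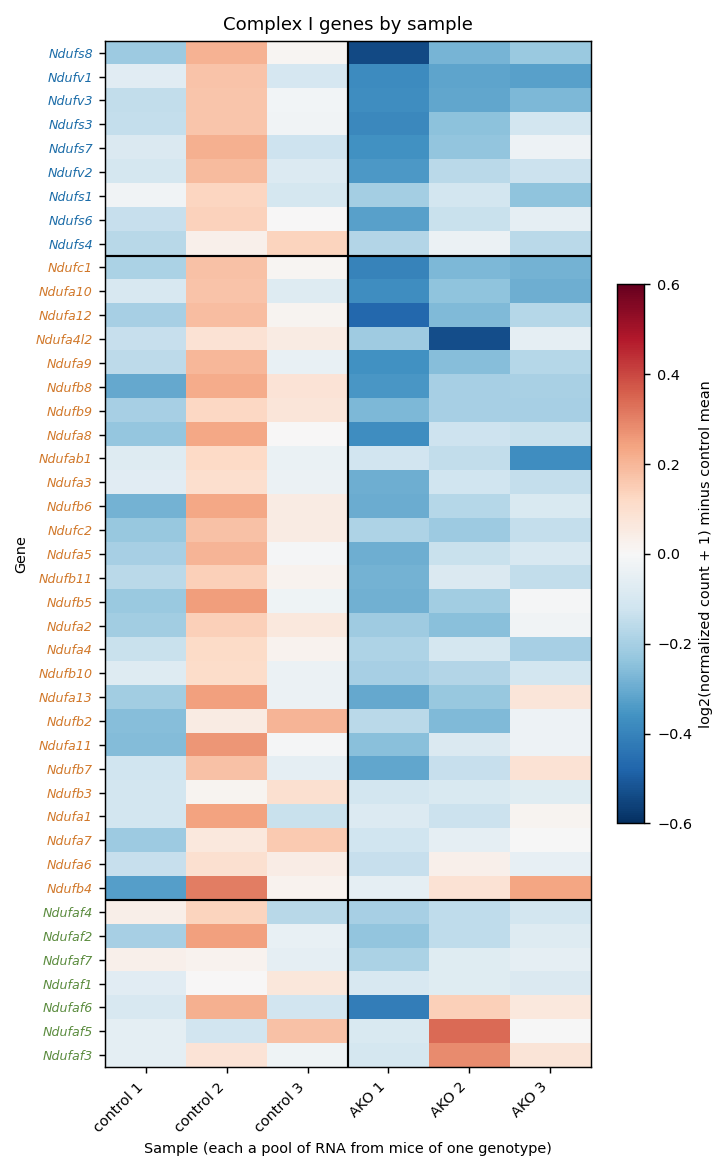
The genes (43 rows) in each of the 6 samples (columns), as log2(normalized count + 1) minus the control mean, red above and blue below it. Lines part the classes and the groups, and gene names are colored by class. Control 2 is red in nearly every row, control 1 is blue in most, and AKO 1 is the bluest AKO column.

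Markers of other cells moved between the samples as well. Of the 15 skeletal muscle genes, 12 had log2 fold changes above 0, with a median of 3.43, and their summed level was 243, 29155 and 15892 normalized counts in control iWAT and 21593, 84088 and 125564 in AKO iWAT. Acta1, the skeletal muscle actin, was at 62.2 in control 1 and at 27039 in AKO 3. The order of the samples within each group was the same for the muscle list and for the complex I median, namely control 1, 3, 2 and AKO 1, 2, 3 from low to high. Between the groups, 12 of the 15 muscle genes had log2 fold changes above 0, and 41 of the 44 complex I genes had them below 0. limma called 0 of the 15 muscle genes, and 1 of the 15 was higher in AKO without overlap (6.14% of all genes tested). The muscle sum of control 2 was above that of AKO 1. The part of the muscle RNA in the complex I values was not tested.

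The macrophage list was above 0 in 10 of 10 genes, with a median of 0.37 and sums of 11493 to 16419 in the control and 14228 to 19703 in AKO iWAT. The mammary epithelium list was above 0 in 6 of 6, with sums of 24.7 to 951 and 148 to 1433, and its Krt8 and Epcam were at 0 in control 2. The lymphocyte list had a median of 0.15, with sums of 169 to 1049 and 150.4 to 1483, and the endothelium list -0.06, with sums of 17639 to 19104 and 16122 to 18427. The defining adipocyte markers were present at high levels in every sample, with a median of -0.12 and sums of 781393 to 806729 in the control and 658197 to 759579 in AKO iWAT. The thermogenic list, which includes Ucp1, was below 0 in 7 of 7, with a median of -0.82 and sums of 31551 to 43379 and 14914 to 19287. The part of these lists in the complex I values was not tested.

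Complex I was set beside the other complexes of oxidative phosphorylation to see where it differed. Of the 42 tested genes of complexes II, III, IV and ATP synthase, 38 had log2 fold changes below 0, with a median of -0.19. Control 2 was also the highest sample for 34 of these 42. The medians were -0.21 for complex II, -0.26 for complex III, -0.18 for complex IV and -0.14 for ATP synthase, and those of the 3 classes of complex I lay between -0.23 and -0.09. The differences between the complexes were not tested.

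Single genes of the other complexes went further. Cox7a1, a cytochrome c oxidase isoform of muscle and thermogenic fat, was at 453, 751 and 518 in control iWAT and at 212, 285 and 310.4 in AKO iWAT (log2 fold change -1.07, SE 0.21, adjusted p = 0.233 by limma and 2.5e-05 by DESeq2). Cox8b, another such isoform, had -0.62 (SE 0.13, adjusted p = 0.295 by limma and 3.3e-04 by DESeq2). Uqcrc2, a core protein of complex III, had -0.34 (SE 0.08, adjusted p = 0.315 by limma and 0.0132 by DESeq2), and Uqcrc1 had -0.33. Sdha, the flavoprotein of complex II, had -0.22, Sdhd had -0.24 and Atp5b, the catalytic subunit of ATP synthase, had -0.29. Atp5g1 was at 28 to 40.1 normalized counts in control iWAT and at 49 to 59.8 in AKO iWAT. The lowest member of complex I, Ndufs8 at -0.35, was about as low as Uqcrc2. Cox6a2, the skeletal muscle isoform of cytochrome c oxidase subunit 6A, named after its values were seen, had the highest value of the 42, 2.29.

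**Figure D5:**
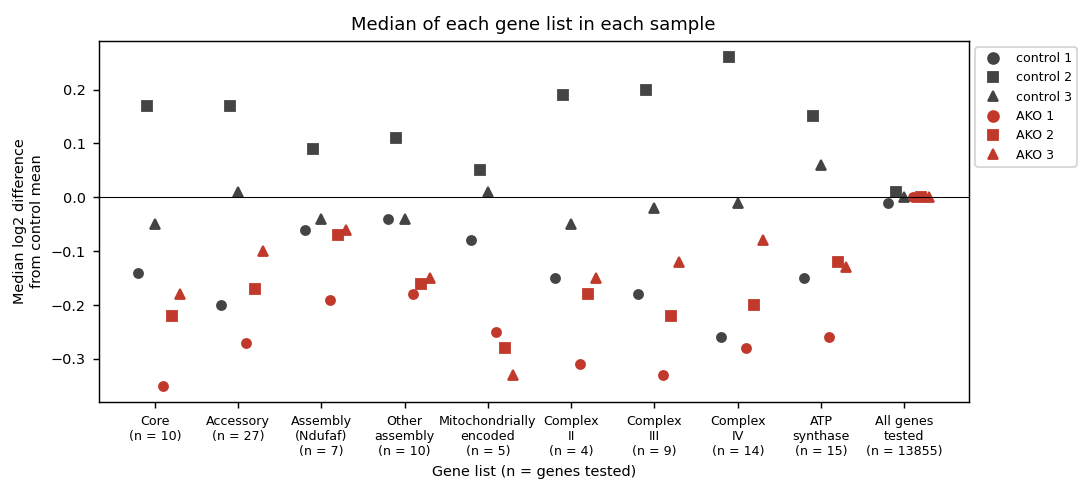
The median, over the tested genes of each list, of log2(normalized count + 1) minus the control mean, for each sample; black symbols are control and red symbols AKO samples, with a shape for each replicate. Control 2 is the highest sample in every complex, and the AKO samples lie below all control samples for the core, the other assembly factors and the mitochondrially encoded genes.

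Regulators of mitochondrial genes were read from a list of 14, of which 13 were tested. limma called none of the 13, and 10 of the 13 had log2 fold changes below 0, with a median of -0.19. Esrra, an estrogen-related receptor that activates genes of oxidative metabolism, was at 1566, 1837 and 1491 in control iWAT and at 1347, 1334 and 1255 in AKO iWAT (log2 fold change -0.31, SE 0.09, adjusted p = 0.387 by limma). Its relative Esrrg was at 125, 97.9 and 88.4 in control iWAT and at 70.1, 57.6 and 65.6 in AKO iWAT (log2 fold change -0.67, SE 0.17, adjusted p = 0.351 by limma). The groups did not overlap for either receptor. DESeq2 called 1 of the 13 (0.757% of all genes called lower), Ppara, a nuclear receptor of fatty acid oxidation, at 1801, 2029 and 1228 in control iWAT and at 1297, 1064 and 1083 in AKO iWAT. Its groups overlapped (log2 fold change -0.53, adjusted p = 0.484 by limma and 0.0474 by DESeq2). Nrf1 had 0.18, with AKO the higher without overlap (adjusted p = 0.608 by limma).

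The letters that such factors are known to bind were searched in the 250 bases before the start of each gene, from RefSeq sequence of GRCm38.p6, on both strands. A sequence was found for 38 of the 44 genes. The NRF1 palindrome CGCATGCG was in 3 of the 38 (7.89%, against 3.43% of the 10491 tested genes with a promoter sequence and 1.75% of all 27025 promoters), those of Ndufa8, Ndufa11 and Ndufaf4. The estrogen-related receptor letters TCAAGGTCA were in 0 of the 38 (0.305% of tested genes, 0.422% of all promoters) and the YY1 letters AAGATGGCG were in 0 of the 38 (1.31% and 0.71%). The ETS core CCGGAAG, bound by GABP, was in 4 of the 38 (10.5%, against 14.8% of tested genes and 7.83% of all promoters), and the CCAAT letters were in 13 of the 38 (34.2%, against 39.9% and 37.5%). A match is only a run of letters, and a window without one says nothing about the factor.

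The 150 bases before the start are shown for the gene with the lowest log2 fold change, Ndufs8, whose stretch holds the CCAAT letters 3 times, and for Ndufaf4, which holds the NRF1 palindrome. Capitals mark the searched letters. The first lies at chr19:3912775-3912924 on the minus strand and the second at chr4:24897933-24898082 on the plus strand of GRCm38.p6.
Ndufs8: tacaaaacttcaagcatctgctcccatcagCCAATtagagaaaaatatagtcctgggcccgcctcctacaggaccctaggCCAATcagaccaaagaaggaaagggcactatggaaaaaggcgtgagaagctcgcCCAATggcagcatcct
Ndufaf4: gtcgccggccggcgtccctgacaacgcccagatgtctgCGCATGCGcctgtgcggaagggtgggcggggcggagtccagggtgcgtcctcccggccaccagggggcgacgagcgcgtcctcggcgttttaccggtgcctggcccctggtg

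The median log2 fold change was -0.15 for the 13 members with the CCAAT letters and -0.19 for the 25 without them. It was -0.16 for the 3 members with the NRF1 palindrome and -0.17 for the 35 without it. Ndufs8 at -0.35 and Ndufb4 at 0.09, the ends of the subunit range, both hold the CCAAT letters. Overlaps with neighbors touched more members than Ndufaf2: 19 of the 44 share exonic bases with another annotated gene, and 7 of the 44 share at least 10% of theirs. The largest shares after Ndufaf2 were 39% for Ndufb6, 30% for Ndufa13 and 19.5% for Ndufb9.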

How the data were processed

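RNA-Seq was done on iWAT of 3 control and 3 AKO samples, grouped by the titles in their labels. Per the study's methods, the authors ran STAR on GRCm38.p6 and took gene counts from featureCounts. The deposited signal of a gene is its count over the size factor of the sample (DESeq2), with no correction for length. Whether the counting used strand is not given in the sources used here. Columns with log2 fold changes and p-values from the authors' own comparison were deposited too and were not used. Within each sample the values were whole multiples of the worth of a single read (0.9603 to 1.075), and dividing by it gave whole reads for 100% of the values within 0.01 of a whole number. Depth was similar in all samples, so counting error is relevant chiefly for the members with few reads. The SD exceeded the Poisson error of the mean value for 41 of the 44 members in the control and 39 of the 44 in the AKO group.

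limma 3.58.1 (R 4.3.3) was fitted with a variance trend to log2(value + 1) of 13855 genes (mean 10 or more), with Benjamini-Hochberg adjustment over all of them and a threshold of 0.05. edgeR 4.0.16 (quasi-likelihood) and DESeq2 1.42.0 were run on the recovered reads. The fits were tested on simulated data. An exact 2-sided permutation test of 3 against 3 cannot go below 0.1 and was not used for calls. No pair of samples in a group was alike within counting error (chi-square over its degrees of freedom, 9.86 to 20.1), so 6 samples were counted. The labels give no litter or day for a pool, so p-values measure the spread between these pools only. Same-numbered samples deviated together with correlations of 0.135, -0.351 and 0.24, and the numbers were not used as pairs.

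Gene models, transcript lengths and copies were taken from GENCODE M21, whereas the study's methods name another release. A copy was an annotated transcript with at least 95% identity over at least 80% of the coding bases. Promoters came from RefSeq, and the NRF1 letters were shortened to the center of a longer palindrome after its counts had been seen. The members and lists were chosen with earlier results of these data known. Named genes were, in each class, the 4 with the smallest p, the one furthest against the class median and the highest per kilobase, with Ndufa4, Ndufa4l2, Ndufab1 and Ndufs1 added by name. From each list of other complexes, other assembly proteins, mt-Nd genes and regulators, the 2 with the smallest p were named. The lists of cell type markers are given mainly by medians and sums, and most of their genes with the smallest p are not named. A member that this rule names is not reported here by name or in the plots, and stays in the counts and medians. Other genes, such as Acta1, Nubpl, Ppara, Nrf1 and Ndufv2, were named after their values were seen. Alternatives were other pseudocounts (0.1 and 10), filters, tools and normalization factors, the replicate number as a block, each sample left out and other member sets.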

Additional observations from a re-analysis of the deposited data

How the results depend on the processing

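The direction of the class medians was below 0 under every alternative run. DESeq2 called 1 of the 44 genes in place of 0, Ndufv1, with a log2 fold change of -0.35 and adjusted p = 0.0187 (range 0.0187 to 0.718 over its alternatives). Leaving out 1 sample at a time gave 0 called genes each time, 38 to 43 genes below 0 and 14 to 34 genes without overlap between groups. The 34 came without control 1, when 28.9% of all genes did not overlap in either direction. With another sample left out the count was 14 to 21, and the share over all genes 21.9% to 25.8%. With all 6 samples it was 14.5%. The medians then ranged from -0.25 to -0.10 over the 44 genes, from -0.29 to -0.12 for the core, from -0.26 to -0.10 for the accessory genes and from -0.13 to -0.03 for the assembly factors, and those nearest to 0 came without control 2. Leaving out 1 sample moved Ndufb4 between -0.08 (without control 1) and 0.24, and Ndufaf3 between -0.01 (without AKO 2) and 0.18.

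With the replicate number as a block, the call count was 0 (0.0144% of all genes). By limma with this block, 17 of the 44 genes had an unadjusted p under 0.05, and the share of all genes is not at hand for that fit. The medians were -0.17 over the 44 genes, -0.23 for the core, -0.17 for the accessory genes and -0.09 for the assembly factors. The block changed no call, and same-numbered samples did not deviate together in all 3 pairs. Without the 7 genes that have near-identical copies, an alternative chosen after seeing the data, 35 of 37 genes were below 0, 13 did not overlap (35.1%, against 14.5% of all genes in either direction) and the median was -0.17. Depth limits the genes with few reads, such as Ndufab1, Ndufaf6 and Ndufb4.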
